A study of Rattus norvegicus with 12 samples.

Results

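The miR-181 family of the rat was followed in serum after single oral doses of caffeine, dextromethorphan or both drugs. Its members were the 4 mature 5p names rno-miR-181a-5p, rno-miR-181b-5p, rno-miR-181c-5p and rno-miR-181d-5p, written below without the species prefix and taken by name from the 752 mature microRNA names of the deposited table, with copies of a name summed. All 4 members passed the filter on low values, which left 366 names for testing. The rats were males of the Sprague-Dawley strain (Jcl:SD) aged 7 weeks, in 4 groups with 3 libraries each here. The CAF group received caffeine at 180 mg/kg, the DEX group received dextromethorphan hydrobromide monohydrate at 200 mg/kg, and the CAF_DEX group received both drugs at these doses. The Control group received the vehicle, sterile distilled water. Caffeine came 1 h before dextromethorphan, and the rats were bled 1 h after dextromethorphan. Caffeine is a blocker of adenosine receptors, and dextromethorphan is a cough suppressant that blocks NMDA receptors. Serum holds no cells, so in these libraries fewer source cells and less RNA released per cell cannot be told apart.

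MicroRNAs are short RNAs that guide Argonaute proteins to messenger RNAs, and the bases near their 5′ end, the seed, do most of the pairing. The hairpin precursor gives a 5p and a 3p arm, and in the miR-181 family the 5p arms are the ones usually counted as the guide strands. The family is known in mouse and human for tuning T-cell receptor signalling and early lymphocyte development, and it is also found in brain and vascular endothelium.

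The mature 5p sequences are given because the members share the seed and differ in few other bases, which bears on how reads can be divided among them. Capitals mark the seed, bases 2 to 8 from the 5′ end (RefSeq, GRCr8).
miR-181a-5p: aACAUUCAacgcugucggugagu
miR-181b-5p: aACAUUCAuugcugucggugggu
miR-181c-5p: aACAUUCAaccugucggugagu
miR-181d-5p: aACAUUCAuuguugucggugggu
The seed ACAUUCA was carried by 4 of the 693 mature rat names in RefSeq, and these were the 4 members. Counting positions from 1 at the 5′ end, miR-181b-5p and miR-181d-5p differed by the single substitution C12U. miR-181a-5p differed from miR-181b-5p by A9U, C10U and A21G. miR-181c-5p, with 22 bases against the 23 of the others, was 1 edit away from miR-181a-5p and 5 edits away from miR-181d-5p. The closest pairs in sequence were therefore a with c and b with d, although the loci pair a with b and c with d.

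The deposited rows gave each member its place on rn6. miR-181a-5p was listed at chr13:54952756-54952778 and at chr3:23150390-23150412, both on the plus strand. miR-181b-5p followed it on both chromosomes, at chr13:54952938-54952960 and at chr3:23151469-23151491, with starts 182 and 1079 bases further on. miR-181d-5p at chr19:25290101-25290123 and miR-181c-5p at chr19:25290272-25290293 lay on the minus strand with starts 171 bases apart. The copies of miR-181a-5p held the same FPKM in 9 of the 12 libraries, and the ratio of the chromosome 3 to the chromosome 13 copy of miR-181b-5p was 1.05 to 1.16. The copies of a name carry one mature sequence, so only the sums are used.

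The reads behind a value set its precision, and they differed between groups. Reads assigned to listed microRNAs, recovered from the FPKM steps, numbered 1504963 to 1842796 in CAF, 403913 to 895792 in DEX, 758290 to 1160717 in CAF_DEX and 1304868 to 2625593 in Control libraries. For a name of 22 bases, 1 read stood for 17.3 FPKM in ctrl3 and for 113 FPKM in DEX3. DEX2 and DEX3 were the shallowest libraries and stood apart from the other 10 on the second principal component. A haemolysis index was taken as log2 of miR-451-5p, a red-cell microRNA, over miR-23a-3p. It was -7.11 to -6.40 in CAF, -6.47 to -5.13 in DEX, -6.44 to -5.67 in CAF_DEX and -7.83 to -7.11 in Control. All treated libraries had a higher index than all Control libraries, CAF3 by a margin too small to show at 2 decimals. All DEX and CAF_DEX libraries also had fewer reads than all Control libraries, while CAF overlapped Control in reads. The index and treatment therefore cannot be told apart, nor can depth and treatment in DEX and CAF_DEX.

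In serum the family was a minor class. Its 4 members together took 0.0492% of the reads assigned to listed microRNAs, pooled over the 12 libraries. miR-181a-5p, the most abundant, ranked 107 of the 752 names by mean FPKM. miR-181b-5p ranked 126, miR-181d-5p 155 and miR-181c-5p 212. In FPKM, which is per length, the order was a, b, d, c in 10 of 12 libraries. In ctrl1 and ctrl3 miR-181d-5p stood above miR-181b-5p, and their Control means of 5777 ± 2521 and 5964 ± 1462 FPKM (SD, n = 3) differed by less than the spread. miR-181a-5p was the highest member and miR-181c-5p the lowest in 12 of 12 libraries.

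**Figure D1:**
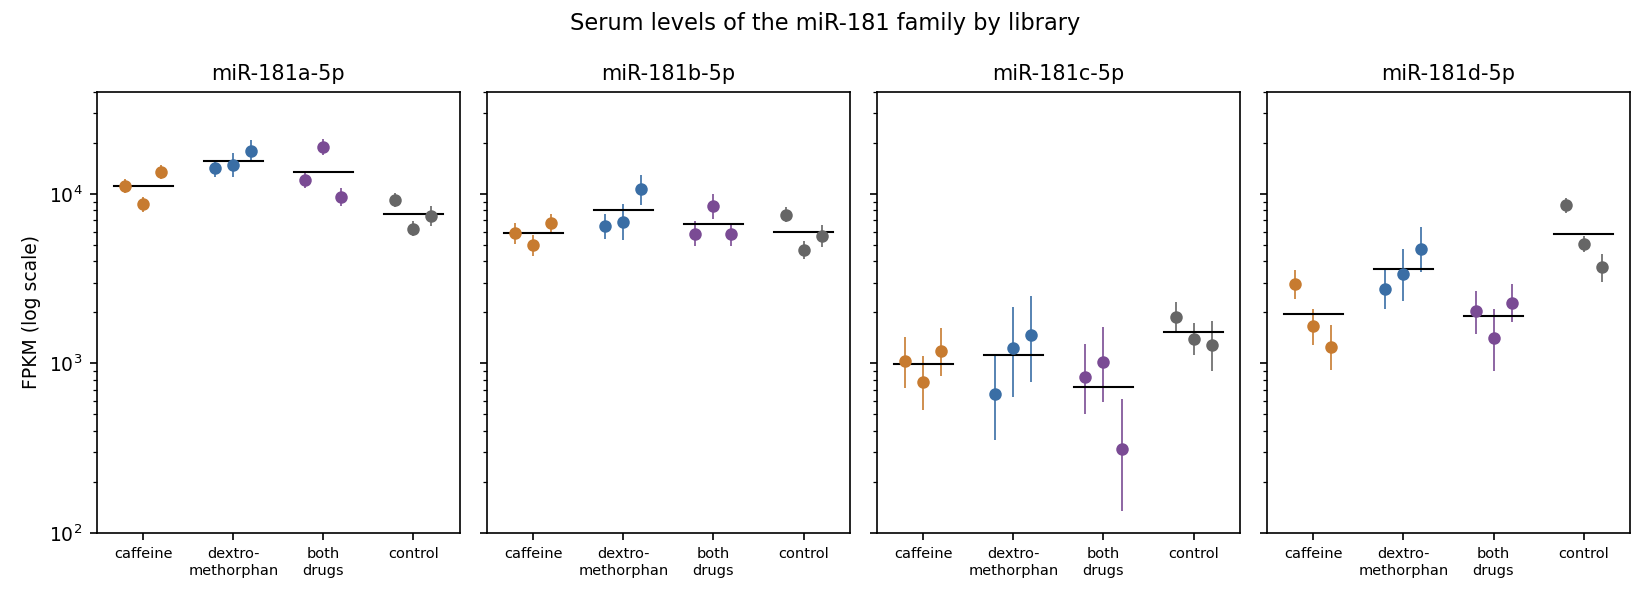
FPKM of each miR-181 5p member in each library (log axis), grouped by treatment, with points for libraries, vertical lines for exact 95% Poisson intervals of the reads, and black lines for group means. The CAF and CAF_DEX libraries of miR-181d-5p lie between 1257 and 2938 FPKM, under all Control libraries. The DEX libraries of miR-181a-5p lie between 14221 and 17976 FPKM, above all Control libraries. Of all tested names, 6.56% in CAF and 15.8% in CAF_DEX lay wholly below Control, and 26.0% in DEX lay wholly above it.

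The 3 differences from Control that passed the test ran in both directions. miR-181d-5p was 2.93-fold lower in CAF and 2.87-fold lower in CAF_DEX than in Control, and both differences passed. miR-181a-5p was 2.07-fold higher in DEX than in Control and passed. miR-181b-5p and miR-181c-5p passed in no comparison. The summed FPKM of the 4 members overlapped between each treated group and Control, at 19947 ± 3435 in CAF, 28441 ± 5652 in DEX, 22884 ± 6143 in CAF_DEX and 20871 ± 5490 in Control (SD, n = 3 each).

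Tests were made with limma on log2(FPKM + 40) over all 366 names, with Benjamini-Hochberg adjustment and a threshold of 0.05. The comparisons against Control share the same 3 Control libraries, and one low or high Control library enters each of them. In CAF against Control, 1 of the 4 members passed, in the lower direction, where 1.09% of the tested names passed lower and 6.83% higher. In DEX against Control, 1 member passed, in the higher direction, where 11.5% of the tested names passed higher and 0.546% lower. In CAF_DEX against Control, 1 member passed, in the lower direction, where 4.37% passed lower and 6.56% higher.

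**Figure D2:**
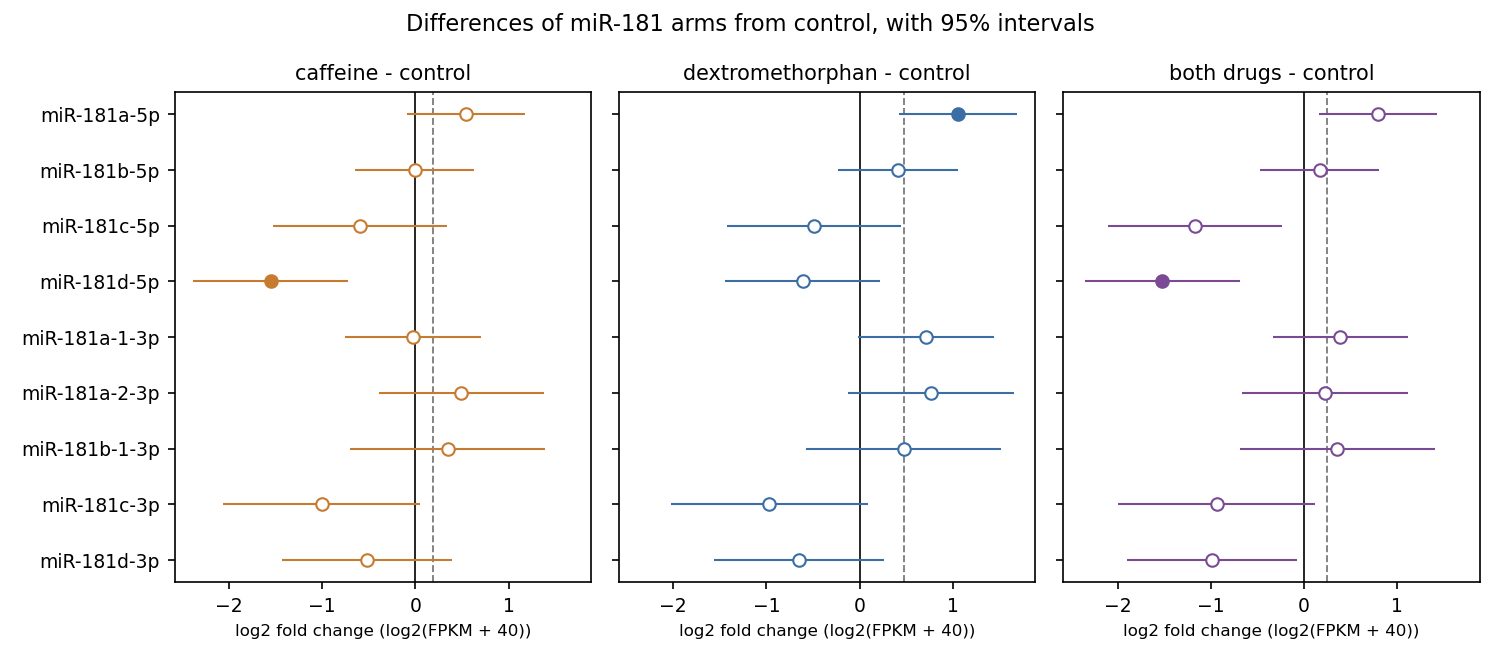
Log2 fold change of the 4 members and the 5 tested 3p arms against Control (x axis, on the log2(FPKM + 40) scale) with 95% intervals, in panels for CAF, DEX and CAF_DEX. Filled points passed at an adjusted p of 0.05, and the dashed line is the median of all 366 tested names, at 0.19 in CAF, 0.47 in DEX and 0.24 in CAF_DEX.

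miR-181d-5p, from the chromosome 19 pair, had the widest range of the 4, with its highest library 6.82 times its lowest. It had 2938, 1652 and 1257 FPKM in CAF3, CAF4 and CAF5. In DEX1, DEX2 and DEX3 it had 2767, 3382 and 4736 FPKM. CAFDEX2, CAFDEX3 and CAFDEX6 held 2028, 1405 and 2285 FPKM, against 8575, 5075 and 3682 FPKM in ctrl1, ctrl3 and ctrl5. Every CAF and CAF_DEX library was below every Control library, as for 6.56% of the tested names in CAF and 15.8% in CAF_DEX. DEX overlapped Control through DEX3. These values rest on 43.5 to 104 reads in CAF, 34.5 to 57 in DEX, 24.5 to 61 in CAF_DEX and 110.5 to 415 in Control.

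In CAF the log2 fold change of miR-181d-5p was -1.55 ± 0.39 (SE, limma, adjusted p = 0.0308), a level 2.93-fold lower than in Control with a 95% interval of 1.65 to 5.21. In CAF_DEX it was -1.52 ± 0.39 (limma, adjusted p = 0.0296), 2.87-fold lower than in Control with an interval of 1.61 to 5.11. In DEX it was -0.61 ± 0.39 (limma, adjusted p = 0.271) and did not pass, with an interval that runs from 2.72-fold lower to 1.16-fold higher. By p-value the difference ranked 14 of 366 in CAF and 16 in CAF_DEX. With CAF4, CAF5, ctrl1 or ctrl3 left out, the CAF log2 fold change was -1.48, -1.29, -1.22 and -1.60 and no longer passed (limma, adjusted p = 0.101, 0.135, 0.149 and 0.0985). With CAFDEX2, CAFDEX3, ctrl1 or ctrl3 left out, the CAF_DEX value was -1.58, -1.32, -1.19 and -1.57 and no longer passed (limma, adjusted p = 0.068, 0.124, 0.176 and 0.0742). Fitted with the index as covariate, the log2 fold changes were -1.49 in CAF and -1.40 in CAF_DEX and neither passed (limma, adjusted p = 0.158 and 0.612). All treated libraries had a higher index than all Control libraries, so this fit cannot separate index from treatment. Of all 366 names, 5 passed in CAF and 1 in CAF_DEX in that fit, against 29 and 40 as reported.

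miR-181c-5p lies beside miR-181d-5p and was the scarcest member. It had 1034, 777 and 1178 FPKM in CAF, 660, 1230 and 1463 in DEX, and 831, 1019 and 313 in CAF_DEX, against 1879, 1402 and 1289 in Control, each in the order of library numbers. CAF and CAF_DEX lay below all Control libraries, and DEX overlapped Control through DEX3. The counts were small, at 31.5 to 39 reads in CAF, 12 to 13 in DEX, 8 to 19 in CAF_DEX and 37 to 87 in Control. The lowest value, 313 FPKM in CAFDEX6, came from 8 reads and has an exact 95% Poisson interval of 135 to 617 FPKM, which covers counting error only.

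None of the differences of miR-181c-5p from Control passed. The log2 fold change was -0.59 ± 0.44 in CAF, -0.49 ± 0.44 in DEX and -1.17 ± 0.44 in CAF_DEX (SE, limma, adjusted p = 0.432, 0.445 and 0.0955). The CAF_DEX level was 2.24-fold lower than Control with a 95% interval of 1.18 to 4.28. Scaled by the median of ratios, this difference was -1.33 and passed (limma, adjusted p = 0.0371). It passed in 3 of 26 alternatives and in 0 of 12 with 1 library left out. The adjusted p over the alternatives was 0.0326 to 0.459 (limma). Counting miR-181d-5p with it, 2 of 4 members lay wholly below Control in CAF and 2 of 4 in CAF_DEX, where 6.56% and 15.8% of all tested names did so.

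miR-181a-5p, from the chromosome 3 and 13 pairs, held more reads than any other member in every library. It had 11177, 8698 and 13539 FPKM in CAF3, CAF4 and CAF5, and 14221, 14899 and 17976 FPKM in DEX1, DEX2 and DEX3. CAFDEX2, CAFDEX3 and CAFDEX6 held 12170, 18902 and 9627 FPKM, against 9194, 6226 and 7397 FPKM in ctrl1, ctrl3 and ctrl5. The DEX and CAF_DEX libraries all stood above the Control libraries, as did 26.0% of the tested names in DEX and 18.0% in CAF_DEX. CAF overlapped Control, since CAF4 lay below ctrl1. Behind the values stood 369 to 469 reads in CAF, 152 to 293 in DEX, 257 to 330 in CAF_DEX and 222 to 445 in Control.

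In DEX the log2 fold change of miR-181a-5p was 1.05 ± 0.30 (SE, limma, adjusted p = 0.0352), 2.07-fold higher than in Control with a 95% interval of 1.34 to 3.21. In CAF_DEX it was 0.79 ± 0.30 (limma, adjusted p = 0.0955), 1.73-fold with an interval of 1.12 to 2.68, and in CAF 0.54 ± 0.30 (limma, adjusted p = 0.267). Neither of these passed, but without CAFDEX6 the CAF_DEX difference was 1.01 and passed (limma, adjusted p = 0.0432). This was the only 1 of 26 alternatives in which the CAF_DEX difference passed. With DEX2, DEX3, CAFDEX2, ctrl1, ctrl3 or ctrl5 left out, the DEX log2 fold change was 1.09, 0.95, 1.05, 1.2, 0.92 and 1.04 and no longer passed (limma, adjusted p = 0.0626, 0.125, 0.0515, 0.0608, 0.152 and 0.0548). Without DEX2 and DEX3 together, which leaves DEX1 alone in its group, the log2 fold change was 0.92 (limma, adjusted p = 0.207). The call was also lost under median-of-ratios scaling, where the log2 fold change was 0.64 (limma, adjusted p = 0.0984). It was lost under quantile normalization, at 0.24, and with the index as covariate, at 0.75 (limma, adjusted p = 0.579 and 0.839). The fit with the index cannot separate index from treatment, and 1 of all 366 names passed in DEX there, against 44 as reported.

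miR-181b-5p, the neighbour of miR-181a-5p on both chromosomes, was the steadiest member, with its highest library 2.28 times its lowest. It had 5866, 4978 and 6746 FPKM in CAF, 6455, 6877 and 10657 in DEX, and 5834, 8457 and 5781 in CAF_DEX, against 7551, 4672 and 5670 in Control. Each treated group overlapped Control. The log2 fold changes were -0.01 ± 0.30 in CAF, 0.41 ± 0.30 in DEX and 0.17 ± 0.30 in CAF_DEX (SE, limma, adjusted p = 0.983, 0.34 and 0.729). The 95% intervals were 0.639-fold to 1.55-fold in CAF, 0.854-fold to 2.07-fold in DEX and 0.722-fold to 1.75-fold in CAF_DEX.

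The log2 fold changes of the members can be set beside the median of all tested names. FPKM are shares of one total, and over all tested names the median log2 fold change was 0.19 in CAF, 0.47 in DEX and 0.24 in CAF_DEX. With median-of-ratios scaling it was -0.04, 0.11 and 0.09. Relative to the unscaled median, miR-181a-5p lay higher by 0.36 in CAF, 0.58 in DEX and 0.55 in CAF_DEX. miR-181d-5p lay at -1.74, -1.09 and -1.76 relative to it, miR-181c-5p at -0.78, -0.96 and -1.41, and miR-181b-5p at -0.19, -0.06 and -0.07, in the order CAF, DEX and CAF_DEX.

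The treated groups were then set against each other, which asks what the second drug added to the first. No member passed in CAF_DEX against DEX, where 3.55% of the tested names did. miR-181d-5p was lower in all 3 CAF_DEX libraries than in all 3 DEX libraries, with a log2 fold change of -0.91 ± 0.39 (SE, limma, adjusted p = 0.263), and 13.1% of tested names lay wholly lower in that comparison. miR-181a-5p, miR-181b-5p and miR-181c-5p overlapped there, at -0.26, -0.24 and -0.68 (limma, adjusted p = 0.714, 0.733 and 0.496). In CAF_DEX against CAF no member passed, nor did any of the 366 names with limma. An unadjusted p under 0.05 was held by 22 names, or 6.01%, a share close to that threshold (limma). The log2 fold changes of the members in that comparison were 0.25 for a, 0.18 for b, -0.57 for c and 0.03 for d (limma, adjusted p = 0.893, 0.9, 0.893 and 0.994), and each overlapped.

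In DEX against CAF, where 2.46% of the tested names passed, all higher, no member did. miR-181a-5p was higher in every DEX library than in every CAF library, at 0.51 ± 0.30 (SE, limma, adjusted p = 0.48), as were 12.3% of tested names. miR-181d-5p was at 0.94 ± 0.39 with overlap between DEX1 and CAF3 (limma, adjusted p = 0.271). miR-181b-5p and miR-181c-5p were at 0.42 and 0.11 (limma, adjusted p = 0.552 and 0.96). The interaction is the CAF_DEX log2 fold change against Control less those of CAF and DEX. It was -0.80 ± 0.42 for miR-181a-5p, -0.23 ± 0.43 for miR-181b-5p, -0.08 ± 0.62 for miR-181c-5p and 0.64 ± 0.55 for miR-181d-5p (SE, limma, adjusted p = 0.296, 0.827, 0.966 and 0.586). None passed, where 4.64% of the tested names did, all negative. The response of miR-181d-5p to caffeine was thus not shown to differ from its response to dextromethorphan.

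Ratios within a library do not depend on how the total was scaled, and they are given as descriptions without a test. miR-181d-5p reads per miR-181a-5p read were 0.263, 0.190 and 0.0928 in CAF, 0.195, 0.227 and 0.263 in DEX, and 0.167, 0.0743 and 0.237 in CAF_DEX, against 0.933, 0.815 and 0.498 in Control. All 9 treated libraries lay below all 3 Control libraries. The same held against miR-181b-5p, with a mean ratio of d to b of 0.340 in CAF, 0.455 in DEX and 0.303 in CAF_DEX, against 0.957 in Control. The ratio of a to b was above Control in all 9 treated libraries, at means of 1.89 in CAF, 2.02 in DEX and 2.00 in CAF_DEX, against 1.28 in Control. miR-181c-5p per miR-181a-5p averaged 0.0896 in CAF, 0.0701 in DEX and 0.0516 in CAF_DEX, against 0.201 in Control, again without overlap. Of single tested names, 32.5% in CAF, 33.1% in DEX and 33.9% in CAF_DEX did not overlap Control in either direction. How often ratios of other names separate was not counted. The ratios reuse the member values and the 3 Control libraries above, so they are not separate evidence.

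**Figure D3:**
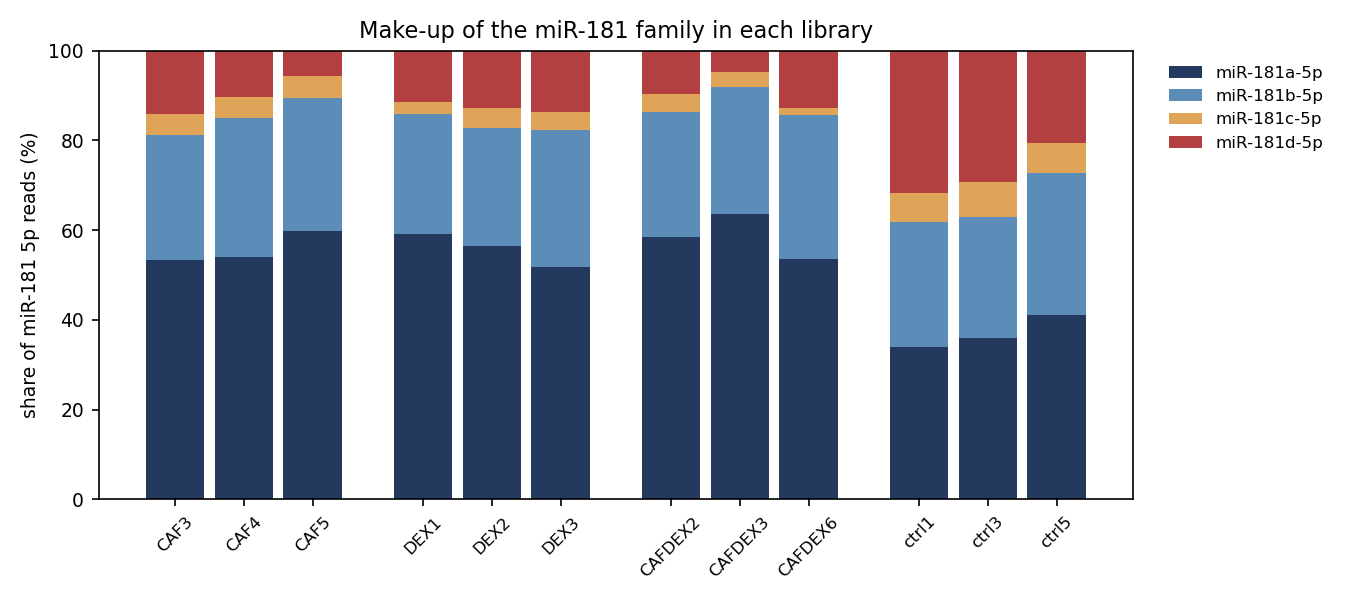
Share of the miR-181 5p reads (y axis, percent) taken by each of the 4 members in each library, as stacked bars that sum to 100%. miR-181d-5p, at the top of each bar, averaged 9.94% in CAF, 12.7% in DEX and 9.05% in CAF_DEX libraries, against 27.1% in Control libraries.

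As shares of the family's reads, miR-181a-5p made up 55.7% ± 3.50 in CAF, 55.8% ± 3.75 in DEX and 58.5% ± 5.03 in CAF_DEX, against 37.0% ± 3.73 in Control (SD, n = 3 each). miR-181d-5p made up 9.94% ± 4.24, 12.7% ± 1.08 and 9.05% ± 4.03 in CAF, DEX and CAF_DEX, against 27.1% ± 5.88 in Control. miR-181c-5p made up 4.77%, 3.7% and 2.92% in the same 3 groups, against 7.08% in Control. The share of miR-181b-5p was 29.6%, 27.9% and 29.5%, against 28.8% in Control, and differed by less than the spread. The shares sum to a whole, so the share of each member depends on those of the others. No member had whole recovered counts in every library, with miR-181c-5p whole in 11 of 12, so reads divided between places enter these values. Between which places a read was divided is not given.

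The 3p arms of the same hairpins had recovered counts that were whole in all 12 libraries. The table listed 6 of them, of which 5 were tested. RefSeq (GRCr8) gives these sequences for the arms set beside the members below, with no base capitalised.
miR-181a-1-3p: accaucgaccguugauuguacc
miR-181c-3p: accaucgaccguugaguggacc
miR-181d-3p: ccaccgggggaugaauguca
miR-181c-3p, from the other side of the miR-181c hairpin, had 1595, 888 and 755 FPKM in CAF, 1877, 410 and 1463 in DEX, and 1224, 1079 and 940 in CAF_DEX, against 2959, 2337 and 1324 in Control. CAF_DEX lay wholly below Control, as did 15.8% of the tested names, while CAF and DEX overlapped Control. The reads of miR-181c-3p per read of miR-181c-5p averaged 1.11 in CAF, 1.39 in DEX and 1.84 in CAF_DEX, against 1.42 in Control, and the ratio was under 1 only in CAF5 and DEX2. Its log2 fold change was -1.0 in CAF, -0.97 in DEX and -0.94 in CAF_DEX (limma, adjusted p = 0.225, 0.18 and 0.228).

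miR-181d-3p, from the hairpin of miR-181d-5p, had 585, 651 and 598 FPKM in CAF, 335, 1015 and 495 in DEX, and 577, 264 and 517 in CAF_DEX, against 832, 971 and 881 in Control. CAF and CAF_DEX lay below all Control libraries, as did 6.56% of the tested names in CAF and 15.8% in CAF_DEX. DEX overlapped Control through DEX2. The log2 fold changes were -0.52, -0.65 and -0.99 in CAF, DEX and CAF_DEX (limma, adjusted p = 0.481, 0.294 and 0.145). Only 4 to 12 reads stood behind its DEX and CAF_DEX values.

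miR-181a-1-3p, the partner of miR-181a-5p on chromosome 13, averaged 1801 FPKM in CAF, 2966 in DEX and 2408 in CAF_DEX, against 1801 in Control. All 3 DEX libraries lay above Control, as did 26.0% of the tested names. The log2 fold change of miR-181a-1-3p in DEX was 0.71 (limma, adjusted p = 0.163). It was at -0.03 in CAF and 0.39 in CAF_DEX. miR-181a-2-3p was at 0.49, 0.77 and 0.23 and miR-181b-1-3p at 0.35, 0.47 and 0.36 in CAF, DEX and CAF_DEX, and none passed. miR-181b-2-3p had 1 read in each of CAF5, ctrl3 and ctrl5 and was listed at 0 elsewhere, so it was not tested.

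Across the 12 libraries, log2 levels of miR-181a-5p and miR-181b-5p had a Pearson r of 0.79, and those of miR-181c-5p and miR-181d-5p 0.53. Members of different loci were further apart, with r of -0.35 for a with d, -0.02 for a with c, 0.13 for b with d and 0.33 for b with c. The names most like miR-181a-5p were miR-23b-3p (r = 0.90), miR-322-5p (0.88), miR-222-3p (0.87), miR-101a-3p (0.86) and miR-221-3p (0.85). For miR-181b-5p they were miR-221-3p (0.83), miR-101a-3p (0.82) and miR-615 (0.77), so that miR-221-3p and miR-101a-3p stood on both lists. For miR-181d-5p they were miR-20a-5p (0.93), miR-148a-3p (0.92) and miR-103-3p (0.90), and for miR-181c-5p miR-30e-5p (0.85), miR-19a-3p (0.83) and miR-19b-3p (0.80). These values describe 12 libraries that share groups, depth differences and one total, and the pairs with divided reads share those reads as well.

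Marker lists of cell types that are known to carry the family were set beside it. A marker is said to rise or fall where it passed the test. Of all tested names, 6.83% passed higher in CAF, 11.5% in DEX and 6.56% in CAF_DEX. The shares that passed lower were 1.09%, 0.546% and 4.37%. Of 6 lymphocyte and leukocyte microRNAs, 2 rose and none fell in CAF, none passed in DEX, and 3 rose and none fell in CAF_DEX against Control. Their median log2 fold changes were 0.42, 0.79 and 1.01, against 0.19, 0.47 and 0.24 over all tested names. Their summed level was 4332760 to 4845630 FPKM in CAF, 3006630 to 4213730 in DEX and 4752710 to 6779600 in CAF_DEX, against 3914410 to 4064010 in Control. Of 6 tested brain microRNAs, 1 rose in CAF, none passed in DEX and 1 fell in CAF_DEX, with medians of -0.02, 0.31 and 0.58. miR-124-3p, a defining neuronal microRNA, was at 0 in all libraries. The 10 listed brain microRNAs summed to 953638 to 1428930 FPKM in CAF, 939249 to 1256740 in DEX and 572878 to 1198420 in CAF_DEX, against 1610720 to 2164310 in Control. This sum, which abundant names dominate, lay below Control in each treated group, while the medians in DEX and CAF_DEX were above 0. The sum thus does not describe the list as a whole. Of 2 endothelial microRNAs none passed in CAF or DEX and 1 rose in CAF_DEX, and their sum was 172218 to 250112, 275728 to 316475 and 146419 to 768666 FPKM, against 84485 to 194287 in Control.

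Red-cell and tissue markers were counted in the same way. Of 3 red-cell microRNAs none passed in CAF, 2 rose in DEX and 1 rose in CAF_DEX, with sums of 3641 to 5554, 6349 to 13269 and 4055 to 6645 FPKM, against 2515 to 3306 in Control. Of 3 liver microRNAs 3 rose in CAF, 3 in DEX and 2 in CAF_DEX, and of 3 striated-muscle microRNAs 3, 1 and 2 rose. Of 3 platelet microRNAs 1 rose in CAF and 1 in DEX, and none passed in CAF_DEX. Over all tested names 6.83%, 11.5% and 6.56% passed higher in CAF, DEX and CAF_DEX, and lists this short allow no comparison with these shares. The part of these cell types in the miR-181 values was not tested.

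**Figure D4:**
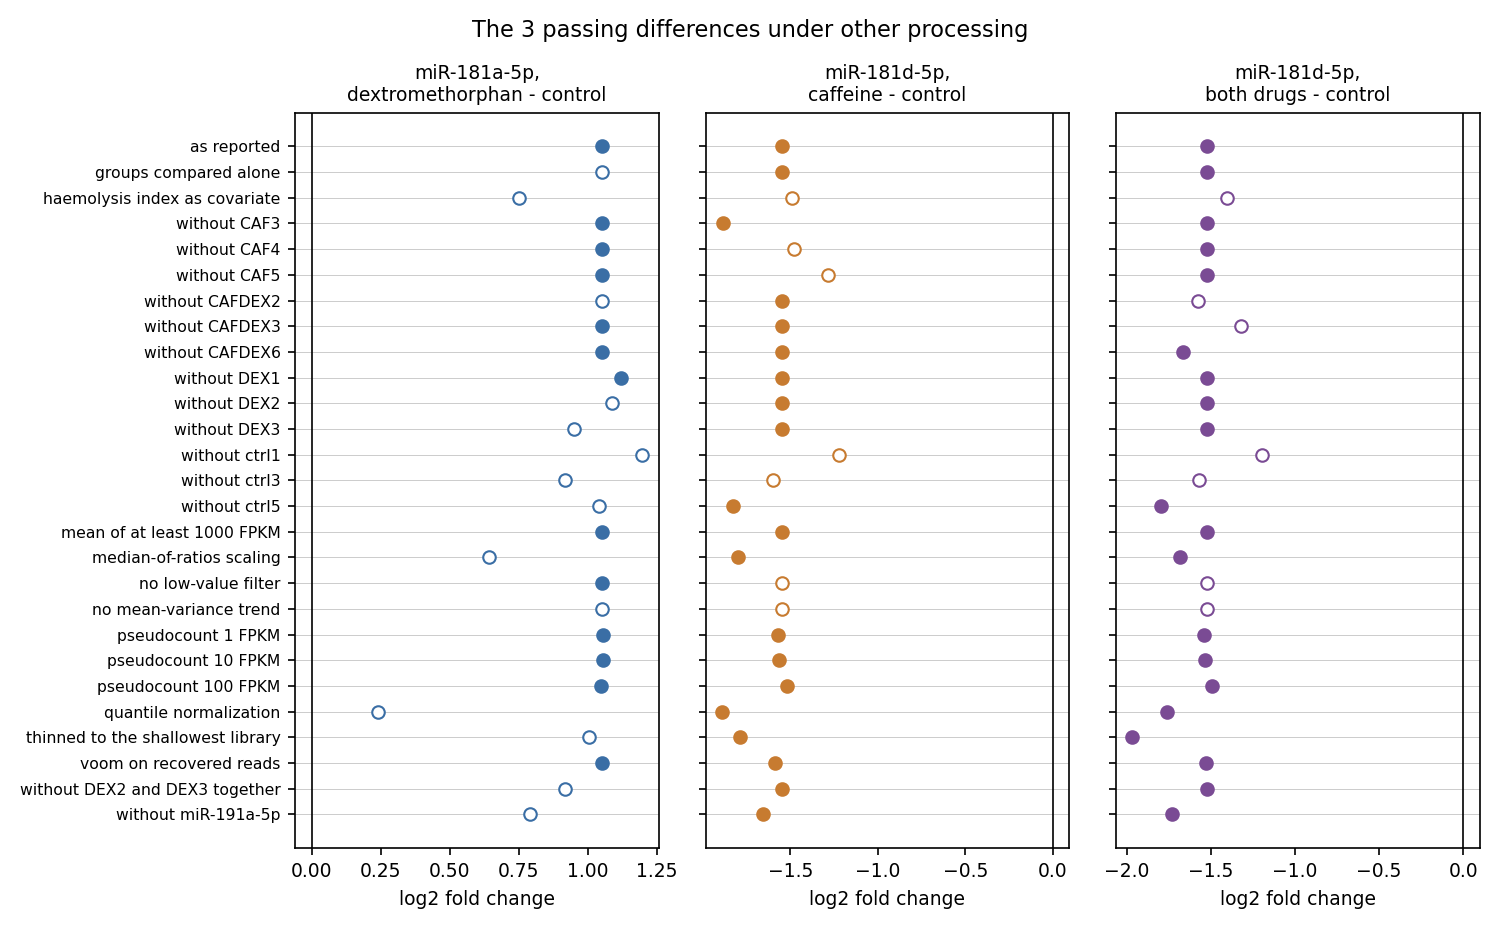
Log2 fold change (x axis) of the 3 differences that passed, under the reported processing and each alternative with a value (rows), with filled points where the adjusted p was under 0.05. Leaving out a library of a group not compared, comparing groups alone, other filters and no trend cannot alter the log2 fold change. All points of miR-181a-5p lie above 0 (0.24 to 1.2) and all points of miR-181d-5p lie below 0 (-1.89 to -1.22 in CAF, -1.97 to -1.19 in CAF_DEX), while the filled points are 12 of 26 alternatives for miR-181a-5p and 19 of 26 for each miR-181d-5p difference.

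The 3 passing differences had the same sign under all 26 alternatives with a value. For some alternatives this was fixed, since they cannot alter the log2 fold change. These were leaving out a library of a group not compared, comparing groups alone, other filters and no mean-variance trend. The adjusted p-values did not all stay under 0.05. Those of miR-181a-5p in DEX ranged from 0.0199 to 0.839, those of miR-181d-5p in CAF from 0.0154 to 0.158 and those of miR-181d-5p in CAF_DEX from 0.0117 to 0.612 (limma).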

How the data were processed

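Small RNA from 200 uL of serum (miRNeasy Micro Kit, QIAseq miRNA Library Kit, per the labels' protocols) was deposited by the authors as FPKM per mature microRNA. Tools in the submitters' processing notes are rn6 as build, DESeq2 1.20.0, Subread 2.0.1, featureCounts, STAR 2.7.10a and cutadapt 3.7, with no roles. Whether molecular indices were used to collapse reads: not given in the sources used here. FPKM times length summed to 1000000000 in every library. Values were steps of 0.01 read, 65.4% to 75.0% of them whole reads. Copies were summed by name (836 rows, 69 names with several). A name was tested if its mean was 80 FPKM or more and it was above 0 in 3 or more libraries. limma 3.58.1 (R 4.3.3; trend, 4 groups, 8 residual degrees of freedom) was run on log2(FPKM + 40), a scale that understates changes of low values. Tests are two-sided. Fits were tested on simulated data. Alternatives were other scalings, filters, pseudocounts and designs, voom on recovered reads, and leaving out libraries.

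Columns gave groups, but their numbers did not match the titles, so libraries keep the column numbers. The design text gives 5 rats per group, and the labels do not tie a library to 1 animal. Spread between these libraries, which may be technical, is therefore what the p-values measure. Poisson intervals cover counting error only. Members and lists were chosen with earlier results of these data known. Named besides the members were all miR-181 3p arms, the 5 names most like miR-181a-5p and the 3 most like each other member by Pearson r.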

Additional observations from a re-analysis of the deposited data

How the results depend on the processing

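No paired analysis was possible because the numbers in the columns do not match the replicate numbers of the sample titles. Of the single differences under all alternatives, 1019 kept their direction and their side of the threshold, 28 no longer passed, 4 newly passed and 54 changed sign, and no difference that changed sign had passed. All 28 losses belong to the 3 differences that passed as reported. Of 26 alternatives, miR-181a-5p in DEX passed in 12, and miR-181d-5p passed in 19 in CAF and 19 in CAF_DEX. The 1019 include fits whose log2 fold change could not differ, such as those without a library of a group not compared. Values of few reads, such as those of miR-181c-5p and the 3p arms, are limited by depth. The causes of the changes below were not tested.

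The number of the 4 members that passed against Control was 1 in CAF, 1 in DEX and 1 in CAF_DEX. In CAF it was 0 with the haemolysis index as covariate, 0 with no low-value filter and 0 with no mean-variance trend. Over all names 29 passed in CAF as reported, and 5, 11 and 9 in these fits, so calls were lost well beyond the family. With 1 library left out the member count was 0 to 1, where 4 to 44 of all names passed. In CAF_DEX it was 0 with the index as covariate, 0 with no filter and 0 with no trend. Over all names 1, 13 and 17 passed in these fits, against 40 as reported. The member count was 2 with median-of-ratios scaling, 2 with quantile normalization and 2 without miR-191a-5p, where 44, 38 and 39 of all names passed. There the second member was miR-181c-5p (limma, adjusted p = 0.0371, 0.0326 and 0.0453). With 1 library left out the member count was 0 to 2, where 3 to 56 of all names passed. Without CAFDEX6 the second member was miR-181a-5p (limma, adjusted p = 0.0432). In DEX it was 0 with the groups compared alone, 0 with the index as covariate, 0 with median-of-ratios scaling and 0 with no trend. Over all names 25, 1, 34 and 18 passed in these fits, against 44 as reported. It was also 0 with quantile normalization, 0 after thinning to the shallowest library and 0 without miR-191a-5p. Over all names 30, 36 and 28 passed there. With 1 library left out the member count was 0 to 1, where 12 to 74 of all names passed. Thinning and the joint removal of DEX2 and DEX3 were chosen after seeing the data.

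The following log2 fold changes changed sign. With the index as covariate, miR-181a-1-3p was 0.020 in CAF against Control, miR-181b-1-3p -0.14 in CAF_DEX and -0.14 in DEX, miR-181b-5p -0.024 in CAF_DEX, miR-181c-3p 0.033 in CAF_DEX and 0.24 in DEX, and miR-181c-5p -0.73 in DEX against CAF and 0.79 in the interaction. With quantile normalization, miR-181a-5p was 0.24 in CAF_DEX against DEX and 0.17 in the interaction, miR-181b-1-3p -0.017 in CAF and -0.051 in DEX, miR-181b-5p 0.097 in CAF_DEX against DEX, -0.078 in DEX and 0.45 in the interaction, and miR-181c-5p -0.051 in DEX against CAF and 0.48 in the interaction. With median-of-ratios scaling, miR-181b-5p was 0.0032 in CAF_DEX against DEX and 0.26 in the interaction, and miR-181c-5p -0.047 in DEX against CAF and 0.39 in the interaction. Without DEX2 and DEX3, miR-181b-5p was 0.028 in CAF_DEX against DEX and 0.036 in the interaction, and miR-181c-5p -0.55 in DEX against CAF and 0.57 in the interaction. Without miR-191a-5p, miR-181b-5p was -0.041 in CAF_DEX, miR-181c-5p -0.041 in DEX against CAF and 0.068 in the interaction, and miR-181d-5p -0.073 in CAF_DEX against CAF. After thinning, miR-181b-5p was 0.37 in CAF, miR-181c-5p 0.019 in DEX and miR-181d-5p -0.18 in CAF_DEX against CAF.

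With 1 library left out, the ranges that crossed 0 were -0.28 to 0.12 for miR-181a-1-3p in CAF, -0.018 to 0.47 for miR-181a-5p in CAF_DEX against CAF, -0.11 to 0.87 for miR-181b-1-3p in CAF and -0.099 to 0.88 in CAF_DEX. For miR-181b-5p they were -0.17 to 0.18 in CAF, -0.0028 to 0.28 in CAF_DEX against CAF and -0.010 to 0.35 in CAF_DEX. For miR-181c-5p they were -0.12 to 0.43 in DEX against CAF and -0.41 to 0.40 in the interaction, and for miR-181d-5p -0.23 to 0.37 in CAF_DEX against CAF. With fewer libraries in one group, its spread is taken from the pooled fit.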
